A study of Canis lupus familiaris with 5 samples.

Results

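Single-cell RNA sequencing of dog bone marrow held 139 barcodes that met an erythroid limit but carried few transcripts of the proliferation genes MKI67 and TOP2A. They were chosen among unsorted whole-marrow barcodes with at least 200 genes and at most 10% of unique molecular identifiers (UMIs, counts of single transcripts) from mitochondrial genes. AHSP, HBM and CA1 together had to give 0.5% or more of a barcode's UMIs, and MKI67 and TOP2A together fewer than 5 raw UMIs. These 139 barcodes, called MKI67/TOP2A-low erythroblasts here, were part of 1069 erythroblast barcodes, of 16223 kept whole-marrow barcodes and of 27953 barcodes in all 5 libraries. The other 930 erythroblast barcodes had 5 or more such UMIs and are called MKI67/TOP2A-high erythroblasts. Because the members were chosen on these genes, the levels of AHSP, HBM, CA1, MKI67 and TOP2A describe the choice, and no test of them is read as a result.

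Erythroblasts are the nucleated precursors of red cells. As they mature they fill with hemoglobin, stop dividing, condense and expel the nucleus, and clear their mitochondria and ribosomes. AHSP binds free alpha-globin and keeps it soluble, HBM is a minor globin of the alpha cluster, and CA1 is the carbonic anhydrase that red cells hold in large amounts. MKI67 coats mitotic chromosomes, and TOP2A untangles DNA in dividing cells, so both fall when a cell leaves the cycle.

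The cells came from 3 healthy dogs of wild-type genotype, with no treatment and no age in the labels. Cells flushed from femurs were freed of red cells by lysis, and an unsorted part of each marrow gave 3 whole-marrow libraries. Viable CD34-positive cells sorted from marrows 2 and 3 gave 2 further libraries. Whole-marrow suspensions were loaded only above a viability limit and below a neutrophil limit, and all groups went through the lysis. Library totals ranged from 46114431 to 70169186 UMIs, and any pair of libraries shared between 4 and 12 barcode sequences, with 1 member of marrow 3 among those shared with the second sorted library. Each library is 1 dog, so values are compared over 3 marrows and barcodes within a marrow are not replicates.

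MKI67/TOP2A-low erythroblasts were rare in every marrow and most numerous in marrow 1. They made up 1.11% (exact 95% interval 0.883 to 1.38) of kept barcodes in marrow 1 (81 barcodes), 0.611% (exact 95% interval 0.406 to 0.881) in marrow 2 (28) and 0.691% (exact 95% interval 0.467 to 0.985) in marrow 3 (30). The mean was 0.804% ± 0.268 (SD, n = 3), and the interval of marrow 1 lay just above that of marrow 2 and overlapped that of marrow 3. Among erythroblast barcodes alone, the share was 19.8%, 6.85% and 11.95%. Both CD34-sorted libraries had 0 members, which allows a share of up to 0.0636% and 0.0797% of their kept barcodes. All intervals and floors cover counting error only.

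Barcodes lay on both sides close to each limit. Marrow 1 alone held the 10 members with an AHSP, HBM and CA1 share between 0.5% and 0.6%, and 14 kept barcodes with few MKI67 and TOP2A UMIs fell just outside, between 0.4% and 0.5%. Those 10 members had a median of 0.996% of UMIs from the neutrophil marker list, and the marrow 1 barcodes just outside had 8.26%. On the proliferation side, 14 members carried 4 MKI67 and TOP2A UMIs and 15 MKI67/TOP2A-high erythroblasts carried exactly 5.

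Genes outside the limits marked the members as erythroid. RHCE, which encodes the Rh blood group protein, stood at 322, 499 and 270.3 CPM (UMIs per 1000000 UMIs of the summed counts) in marrows 1 to 3, against 2.03, 3.88 and 2.61 CPM in the other kept barcodes of the same marrows and 481, 473 and 399 CPM in MKI67/TOP2A-high erythroblasts. ALAS2, the enzyme of the first step of erythroid heme synthesis, stood at 427, 719 and 555 CPM. HEMGN, an erythroid nuclear protein, had 174, 546 and 267 CPM, lowest in marrow 1, as was ALAS2 but not RHCE. The transcription factors GATA1 (227, 246 and 250.3 CPM) and KLF1 (281, 313 and 353 CPM), which switch on red cell genes, differed less between marrows. SLC4A1, the anion exchanger that becomes abundant late in maturation, gave 1, 5 and 8 UMIs, or 1.72, 33.3 and 22.8 CPM. MKI67/TOP2A-high erythroblasts had 15.2, 28.7 and 15.1 CPM, above members in marrow 1 and below them in marrows 2 and 3. The 15 erythroid markers outside the limits summed to 7878, 8621 and 9027 CPM in members and 8741, 10023 and 9228 CPM in MKI67/TOP2A-high erythroblasts, and to 248, 747 and 369 CPM in the rest.

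Per barcode, the contrast with other kept barcodes held at matched depth. After each barcode was thinned to 1000 UMIs, RHCE had a UMI in 18.2, 40 and 22.2% of members of marrows 1 to 3 and ALAS2 in 36.4, 52 and 37.0%, where 15, 3 and 3 shallower members were left out. Unthinned, the shares were 47.0, 72 and 44.4% and 69.7, 84 and 81.5%. MKI67/TOP2A-high erythroblasts, thinned alike, had 39.6, 42.5 and 31.7% for RHCE and 49.7, 54.1 and 55.2% for ALAS2. Members lay below them in every marrow for both genes, and this was not tested. In other kept barcodes, mostly of other cell types, thinned shares were 0.243, 0.343 and 0.175% for RHCE and 0.520, 0.634 and 0.651% for ALAS2. Those barcodes include some with up to 1.11, 1.38 and 0.932% of UMIs from erythroid markers, and the source of their shares was not tested. Median depths of the barcodes used were 2816, 3453 and 6278 UMIs in members and 3151.5, 3704.5 and 4197 UMIs in other kept barcodes.

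Against the other kept barcodes, the leading genes by the smallest ratio over the 3 marrows included MIOX, ALAS2, HEMGN, HBM, RHCE, TSHB, SEPTIN4, AHSP, PLEK2, FECH, BLVRB and PRDX2, with the unnamed features ENSCAFG00000032615 and ENSCAFG00000030286 among the first 6. These ratios describe how the set was chosen and carry no test. MIOX, an inositol oxygenase, stood at 96.4, 499 and 228 CPM against 0.514, 1.54 and 1.29 CPM. FECH inserts iron into heme, BLVRB reduces biliverdin, and PRDX2 is the main peroxide scavenger of red cells. The unnamed features were far more abundant: ENSCAFG00000032615 took 28569, 124874 and 91483 CPM and ENSCAFG00000030286 35577, 130652 and 99041 CPM in members. The files used here pair neither identifier with a symbol. Both were lowest in marrow 1 and highest in marrow 2, and their combined share of UMIs per barcode had a median of 3.92, 29.3 and 23.6% in marrows 1 to 3, against 12.7, 18.5 and 15.2% in MKI67/TOP2A-high erythroblasts.

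Low MKI67 and TOP2A counts went with low depth. Members had a median of 2357, 2952.5 and 4453.5 UMIs in marrows 1 to 3, and MKI67/TOP2A-high erythroblasts 44454, 42846 and 60358 UMIs. A limit in raw UMIs favours such a gap, since it keeps shallow barcodes out of the MKI67/TOP2A-high set. Of those 930 barcodes, 21 lay under 10000 UMIs. How much of the gap the limit makes was not tested. At the median MKI67 and TOP2A rate of the MKI67/TOP2A-high erythroblasts, 5 UMIs are reached at 4288, 5323 and 6368 UMIs of depth, and 93 of the 139 members lay below that depth (55, 21 and 17). Members under 2000 UMIs carried 7.27, 3.71 and 3.88 MKI67 and TOP2A UMIs per 10000, those from 2000 to 10000 UMIs 3.66, 3.96 and 2.96, and the 29 members of 10000 UMIs or more (16, 4 and 9) 0.769, 1.98 and 0.763. The MKI67/TOP2A-high rate was 13.9, 12.04 and 9.63 per 10000. All 3 depth classes lay below that rate in every marrow, the deepest farthest, which the limit itself favours, and 49 of the 139 members had no UMI of either gene.

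Thinned to 1000 UMIs, 33.3, 16 and 22.2% of members still had a MKI67 or TOP2A UMI, against 70.4, 60.4 and 52.5% of MKI67/TOP2A-high erythroblasts. The unthinned shares of members were 71.2, 68 and 74.1%. The label of non-cycling erythroblasts thus rests for those 93 members on a count that their depth would not reach at the typical rate. The AHSP, HBM and CA1 share, which chose both sets and says nothing of their stage, had a median of 1.71, 2.59 and 2.72% in members and 2.71, 2.34 and 2.31% in MKI67/TOP2A-high erythroblasts.

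**Figure D1:**
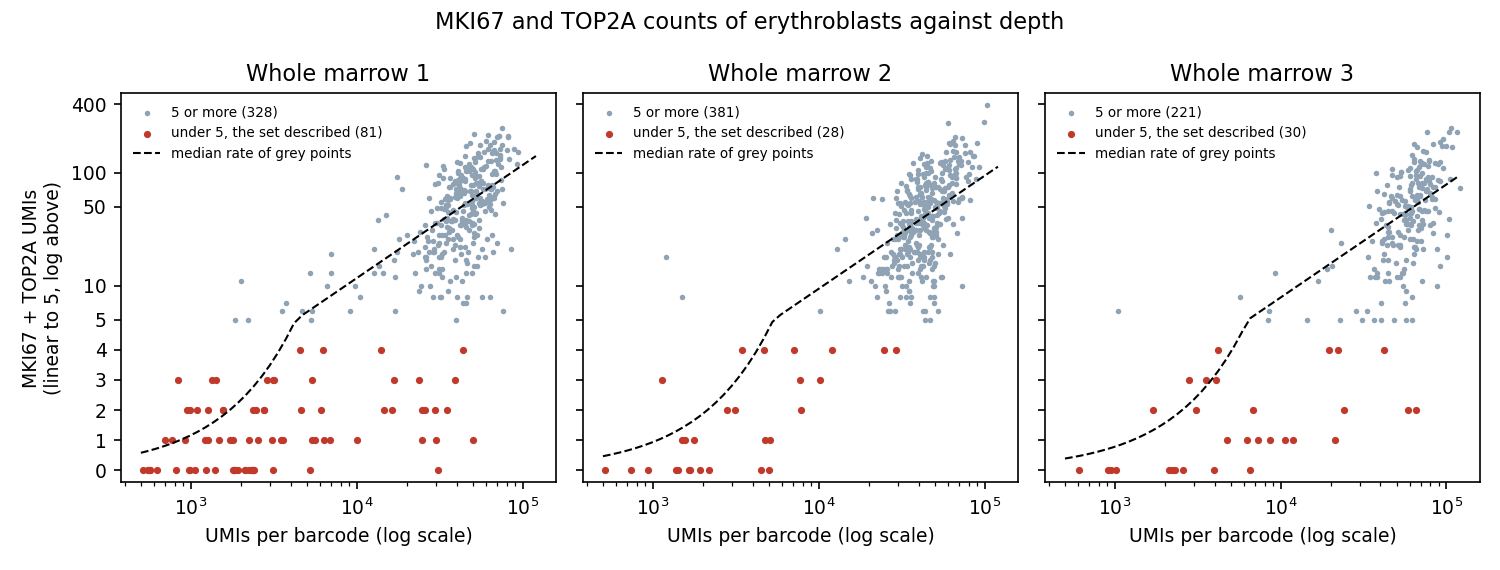
MKI67 and TOP2A UMIs (vertical axis, linear to 5 and logarithmic above) against UMIs per barcode (horizontal axis, logarithmic) for every erythroblast barcode of the 3 whole marrows; red points are the 139 MKI67/TOP2A-low erythroblasts, grey points the 930 others, and the dashed line is the median rate of the grey points. Of the red points, 93 lie left of the depth at which the line reaches 5 UMIs, and 29 lie at 10000 UMIs or more.

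Mitochondrial transcripts were scarce in most members of marrows 2 and 3 and in a smaller share of those of marrow 1. The median mitochondrial share was 1.30, 0.125 and 0.0803% of UMIs in members of marrows 1 to 3 and 4.82, 4.30 and 5.32% in MKI67/TOP2A-high erythroblasts. The medians averaged 0.501% ± 0.691 and 4.81% ± 0.511 (SD, n = 3) and did not overlap. An exact two-sided permutation test gave p = 0.1, the smallest value that 3 against 3 allows (0.2 after adjustment over 6 measures). It did not pair the 2 medians of a marrow, although both come from the same dog. The 6 measures include depth, genes and the AHSP, HBM and CA1 share, not read as tests here. The mitochondrial share is not read as a test either, because the 10% limit that chose the barcodes caps it. Over that limit lay 23, 19 and 178 further barcodes of marrows 1 to 3 that met the AHSP, HBM and CA1 limit. The medians, above all that of marrow 3, depend on this limit. A share under 0.5% was found in 73 of the 139 members (30, 21 and 22) and in 10 of the 930 MKI67/TOP2A-high erythroblasts. These 73 members were shallow, with medians of 1443, 1768 and 3758.5 UMIs and 538.5, 529 and 711.5 genes. The 2 unnamed features took a median of 6.20, 30.9 and 23.6% of their UMIs, and of 2.23, 25.0 and 21.7% in the other members. Members of 10000 UMIs or more had median mitochondrial shares of 5.98, 6.07 and 3.90%, above the MKI67/TOP2A-high medians in marrows 1 and 2 and below in marrow 3. Depth moved with the mitochondrial share, and its part in that difference was not tested. Ribosomal protein genes took 26.4, 19.2 and 25.0% in members and 23.5, 20.4 and 22.2% in MKI67/TOP2A-high erythroblasts (exact permutation p = 0.5, n = 3 and 3, not paired by dog).

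**Figure D2:**
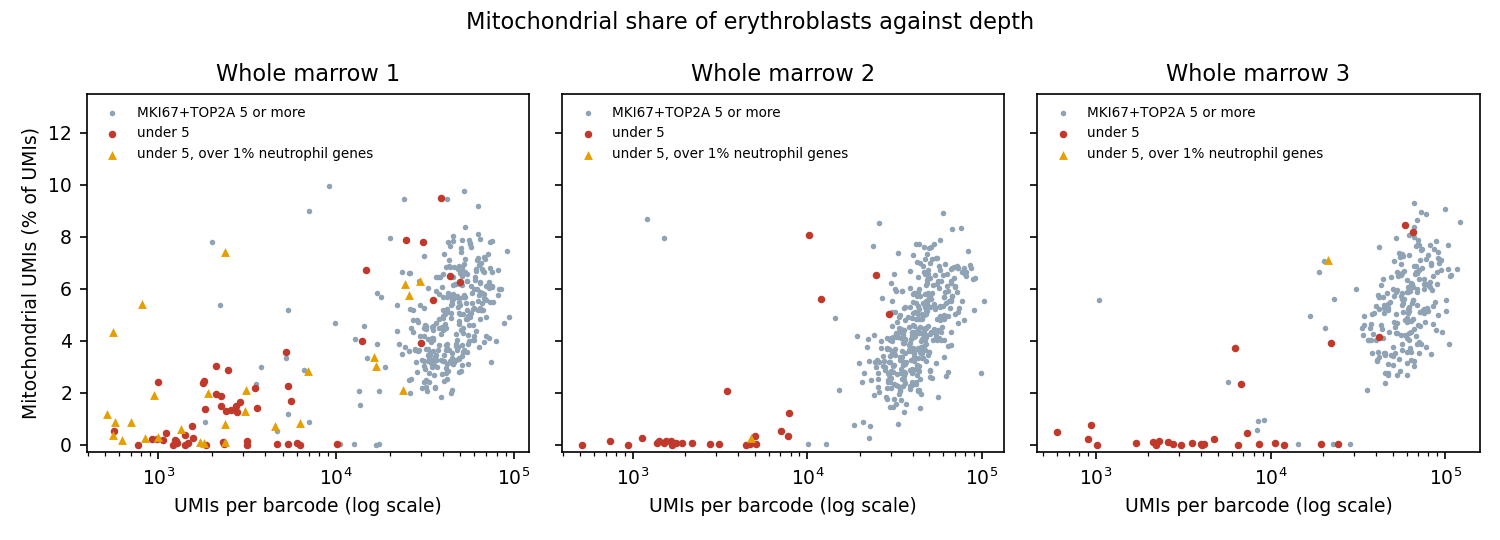
Mitochondrial share (vertical axis, % of UMIs) against UMIs per barcode (horizontal axis, logarithmic) for the erythroblast barcodes of each whole marrow; red points and orange triangles are MKI67/TOP2A-low erythroblasts, triangles those with over 1% of UMIs from neutrophil markers, and grey points are MKI67/TOP2A-high erythroblasts. Shallow members lie near 0 in marrows 2 and 3, and 28 of the 30 triangles are in marrow 1.

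Members rich in neutrophil transcripts were found mainly in marrow 1. Over 1% of UMIs came from 15 neutrophil markers in 28 of 81 members of marrow 1, but in 1 of 28 and 1 of 30 in marrows 2 and 3, and in 61 of the 930 MKI67/TOP2A-high erythroblasts. The summed neutrophil markers reached 19786, 9666 and 5351 CPM in members, 3474, 1821 and 3374 CPM in MKI67/TOP2A-high erythroblasts and 173785, 138346 and 188266 CPM in other kept barcodes. S100A8, a calcium-binding protein of neutrophils and monocytes, stood at 7378, 4393 and 575 CPM in members, so marrow 3 lay below its own MKI67/TOP2A-high value while marrows 1 and 2 lay above (1089, 559 and 1007 CPM). A doublet score against simulated doublets called 14 members (12, 2 and 0), of which 13 were among the neutrophil-rich. Monocyte and macrophage markers summed to 62.0, 126 and 17.1 CPM in members and 31.9, 43.0 and 21.1 CPM in MKI67/TOP2A-high erythroblasts, higher in members of marrows 1 and 2, with CD163, VCAM1 and CSF1R at 0 in members. AIF1, a calcium-binding protein of macrophages, had 7, 4 and 0 UMIs in members and was the 1 of 5 tested markers of that list called higher in the comparison below. Of 9 T and NK markers present 8 had no UMI in members, megakaryocyte markers summed to 10.3, 0 and 5.69 CPM and plasma cell markers to 17.2, 0 and 8.53 CPM. Eosinophil, basophil and mast cell markers summed to 10.3, 0 and 0 CPM and plasmacytoid dendritic cell markers to 10.3, 0 and 5.69 CPM. Stem and progenitor markers summed to 53.4, 13.3 and 48.4 CPM, with CD34 at 0, 0 and 1 UMIs. CD79A, a B cell receptor subunit, was counted at 8126, 6164 and 7283 CPM in members and 5048, 4758 and 4487 CPM in other kept barcodes, while the other 8 B lineage markers summed to 6.89, 6.66 and 5.69 CPM.

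The next comparison set the summed counts of MKI67/TOP2A-low against MKI67/TOP2A-high erythroblasts of the same marrow, to ask what else differed. No heme synthesis gene passed the test, several neutrophil markers, the actin gene ACTG1 and the actin-binding TMSB10 were higher in members, and genes of chromosome segregation and some of the red cell membrane and skeleton were lower. Of 7760 genes tested, 132 were higher (1.7%) and 143 lower (1.84%) at an adjusted p under 0.05 in edgeR's quasi-likelihood test with the marrow as a block, 275 in all (3.54%), and DESeq2 called 67 and 39. Sums were higher in members of all 3 marrows for 6.95% of genes and lower in all 3 for 28%, and the 3 member sums did not overlap the 3 others for 18.9%, which is the background for such statements on single genes below. The median log2 fold change of all genes was -0.07. The member sums held 580878, 150223 and 351520.0 UMIs, of which barcodes of 10000 UMIs or more gave 73.8, 50.5 and 78.3%, so the deep members dominate these levels.

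No heme synthesis gene was called. None of the 20 tested, from ALAS2 to the mitochondrial iron importer SLC25A37, passed the test, and their median log2 fold change was -0.20. Of the 20, 10 had a lower CPM in members of all 3 marrows and 0 a higher one, against 28% and 6.95% of all genes. In simulated counts this test recovered 21% of 2-fold and 66.0% of 4-fold changes. Those counts had a single fixed dispersion and no marrow differences, and the changed genes were picked over all levels. The rates are thus not those of the heme genes in particular. A missing call does not show equal levels. ALAS2 had 427, 719 and 555 CPM against 700.4, 746 and 647 CPM in MKI67/TOP2A-high erythroblasts (log2 -0.24 ± 0.13 SE, adjusted p = 0.489, edgeR). Genes that human erythroblasts raise late, a list of 33 tested, also had no call, with a median of -0.24. Of these, 14 had a lower CPM in members of all 3 marrows and 1 a higher one. TRIM58, a ubiquitin ligase that acts before enucleation, had 37.9, 26.6 and 48.4 CPM against 70.2, 71.6 and 57.9 CPM (log2 -0.66 ± 0.28 SE, adjusted p = 0.25, edgeR), and BLVRB had a log2 fold change of 0.02. Neither unnamed abundant feature passed the test: ENSCAFG00000030286 had a log2 fold change of 0.04 ± 0.63 SE, lower in members of marrow 1 and higher in those of marrows 2 and 3.

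The red cell membrane and its skeleton were the erythroid group with most calls. Of 30 tested genes 6 were lower, against 1.84% of all genes, and 0 higher, with a median of -0.26. ANK1, which ties spectrin to the anion exchanger, had 53.4, 79.9 and 42.7 CPM against 93.8, 147 and 107 CPM (log2 -0.90 ± 0.24 SE, adjusted p = 0.00631, edgeR), and members were below their own marrow in all 3. RHAG, the partner of the Rh proteins, fell by 0.82 on the log2 scale, and the water channel AQP1 by 0.57, while ADD2 and CD47 were also called lower. TFRC, the receptor that takes up transferrin-bound iron, had 157, 219.7 and 79.7 CPM against 227, 293 and 176 CPM (log2 -0.59 ± 0.18 SE, adjusted p = 0.0367, edgeR). TFRC lost its call in 12 of 17 other settings, DESeq2 among them. With each barcode limited to 5000 UMIs, 1 of 23 tested genes of this group was called, AQP1 at a log2 fold change of -0.86.

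Among regulators, LDB1, which joins GATA1 complexes to distant enhancers, was the 1 of 21 transcription factors called (1.84% of all genes were lower), with 67.1, 53.3 and 48.4 CPM against 112, 120.0 and 117 CPM (log2 -0.92 ± 0.23 SE, adjusted p = 0.00462, edgeR). LDB1 lost its call in 9 of 17 other settings, DESeq2 among them. GATA1, KLF1 and the erythropoietin receptor gene EPOR were lower in members of every marrow but did not pass: KLF1 had a log2 fold change of -0.40 ± 0.15 SE, adjusted p = 0.138 and EPOR of -0.40 ± 0.17 SE, adjusted p = 0.269 in edgeR. In erythropoietin signalling 2 of 11 genes were higher, against 1.7% of all genes. PTPN6, the phosphatase that switches the receptor off and is also abundant in neutrophils, had 341, 193 and 193 CPM against 191, 133 and 129.5 CPM (log2 0.77 ± 0.17 SE, adjusted p = 0.000899, edgeR). PTPN6 lost its call in 9 of 17 other settings, among them without neutrophil-rich barcodes and without marrow 1. KIT, the stem cell factor receptor of early erythroid cells, rose by 2.18 but rested on 11, 1 and 7 member UMIs. No gene of the cell cycle exit list (19 tested) was called: GADD45A, a growth arrest gene, had 205, 179.7 and 182 CPM against 162, 140.3 and 153 CPM, and CDKN1A, which encodes p21, gave 1 UMI in all members.

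Of genes that act on the nucleus and organelles, 2 of 26 in the condensation and enucleation list were lower, against 1.84% of all genes. Of these, HMGB2, a chromatin protein of dividing cells, had 1162, 1305 and 1107 CPM against 1715, 1659.6 and 1617 CPM (log2 -0.39 ± 0.11 SE, adjusted p = 0.0177, edgeR). The limit on MKI67 and TOP2A favours a fall of such a gene, so its test is not read as a result. HMGB2 also lost its call in 9 of 17 other settings, DESeq2 among them. XPO7, a nuclear exporter that removes histones before enucleation, had 13.8, 26.6 and 59.7 CPM against 20.0, 18.9 and 18.4 CPM and did not pass (log2 0.79 ± 0.37 SE, adjusted p = 0.328, edgeR). ALOX15, the lipoxygenase that opens organelle membranes in reticulocytes, was the 1 called of 28 mitophagy and autophagy genes, near the 3.54% of all genes. Its levels were 12.1, 113 and 34.1 CPM against 15.2, 32.9 and 12.6 CPM (log2 1.15 ± 0.35 SE, adjusted p = 0.0320, edgeR), lower in members of marrow 1, and among barcodes of 10000 UMIs or more the value was -2.07. Of the 13 mitochondrially encoded genes 5 were lower, against 1.84% of all genes, with MT-ND1 at 1491, 772 and 1622 CPM against 1877, 1629 and 2070.1 CPM. With barcodes limited to 5000 UMIs, 10 of 13 were lower, with a median log2 fold change of -1.03 in place of -0.30. None of 46 nuclear genes of oxidative phosphorylation was called.

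Genes of chromosome segregation were lower in members, which follows from the limit on MKI67 and TOP2A and is given as a description. In the mitosis list 38 of 58 genes were past the threshold, all lower, with a median of -1.01. These 38 are among the 143 lower genes and so part of the 1.84%. CENPF, a kinetochore protein, had 172, 146 and 102 CPM against 767, 695 and 498 CPM. Of 43 DNA replication genes, LIG1 and ORC1 were lower and the median was -0.15. With barcodes limited to 5000 UMIs, 3 of 53 mitosis genes were past the threshold, with a median of -0.63, and among barcodes of 10000 UMIs or more 42 of 57 did. Several named genes outside those lists act in the same process, so the limit favours their fall as well and their tests are not read as results. ASPM, which organises spindle poles, had 49.9, 33.3 and 25.6 CPM against 291, 299 and 223 CPM (log2 -2.75 ± 0.23 SE). KNL1, a kinetochore scaffold, had 80.9, 26.6 and 31.3 CPM against 183, 169 and 129 CPM, and SMC1A, a cohesin subunit, 239, 186 and 119 CPM against 449, 329 and 402 CPM. Members lay below the MKI67/TOP2A-high sums of every marrow for these 3 genes, as for DIAPH3, KIF15, SGO2 and MYH10, which act in cytokinesis, the spindle, centromeres or contractile rings. The choice of named genes required a lower value in each marrow.

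The lower genes with other roles included KIDINS220, a membrane scaffold (72.3, 20.0 and 22.8 CPM against 122, 119.8 and 86.2 CPM), SMG1, the kinase of nonsense-mediated decay (96.4, 39.9 and 48.4 CPM against 198, 153 and 122 CPM), and PFKM, the phosphofructokinase of glycolysis (39.6, 46.6 and 39.8 CPM against 97.8, 90.4 and 96.6 CPM). AOC3, an amine oxidase, fell by 1.23 on the log2 scale, and ATF4, the transcription factor of the integrated stress response, by 0.64. UBB, a ubiquitin gene, fell by 0.59 and was the 1 called of 29 ubiquitin genes. TFRC was the 1 called of 13 iron genes, PFKM of 15 glycolysis genes and ATF4 of 21 stress response genes. A single call in lists of this size is near the 3.54% called over all genes and is no result about the lists. In the growth list KIT was the 1 called of 20, 6 of 53 ribosomal protein genes were higher (median 0.19), and 0 of 18 solute carriers and 0 of 2 carbonic anhydrases passed.

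Genes that were higher in members included several known from myeloid cells. ACTG1, cytoplasmic actin, had 437, 339 and 117 CPM against 111, 77.6 and 82.8 CPM (log2 1.68 ± 0.18 SE, adjusted p = 7.48e-17, edgeR), and the actin-binding TMSB10 1434, 1125 and 859 CPM against 884, 579 and 689 CPM. For members with 0 MKI67 and TOP2A UMIs, TMSB10 had a log2 fold change of -0.20. SERPINB1, an inhibitor of neutrophil proteases, had 133, 146 and 68.3 CPM against 26.0, 28.4 and 39.0 CPM (log2 1.96 ± 0.25 SE, adjusted p = 3.43e-12, edgeR), with members above every MKI67/TOP2A-high sum. MSRB1, a repair enzyme for oxidised methionine, had 179, 39.9 and 39.8 CPM against 30.1, 22.9 and 28.7 CPM. NFKBID, a nuclear regulator of NF-kB, had 229, 213 and 31.3 CPM against 36.1, 19.3 and 27.3 CPM and was close to equal in marrow 3. The others of the 12 were ABRACL, CSTB, GGH, SELENOW, CLIC1 and FKBP11, beside PTPN6, with log2 fold changes from 0.74 (FKBP11) to 1.58 (ABRACL). Of the 15 neutrophil markers tested, 4 were called higher (MMP8, MMP9, LCN2 and MPO), against 1.7% of all genes, and the median was 1.92. MMP9 had 122, 66.6 and 14.2 CPM against 12.2, 15.7 and 9.78 CPM. GLRX, a glutaredoxin, and SELENOW were the 2 called of 20 oxidant genes, against 1.7% of all genes higher. GLRX was higher in members of marrows 1 and 2 and lower in marrow 3 (60.3, 66.6 and 2.84 CPM against 11.8, 6.27 and 7.97 CPM). Neutrophil-rich barcodes moved with these genes: without them, 29 genes were higher and 96 lower, 24 of the 132 higher calls were kept, and 1 of 14 neutrophil markers was called. SERPINB1 (1.79) and ACTG1 (1.45) kept their direction without them.

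**Figure D3:**
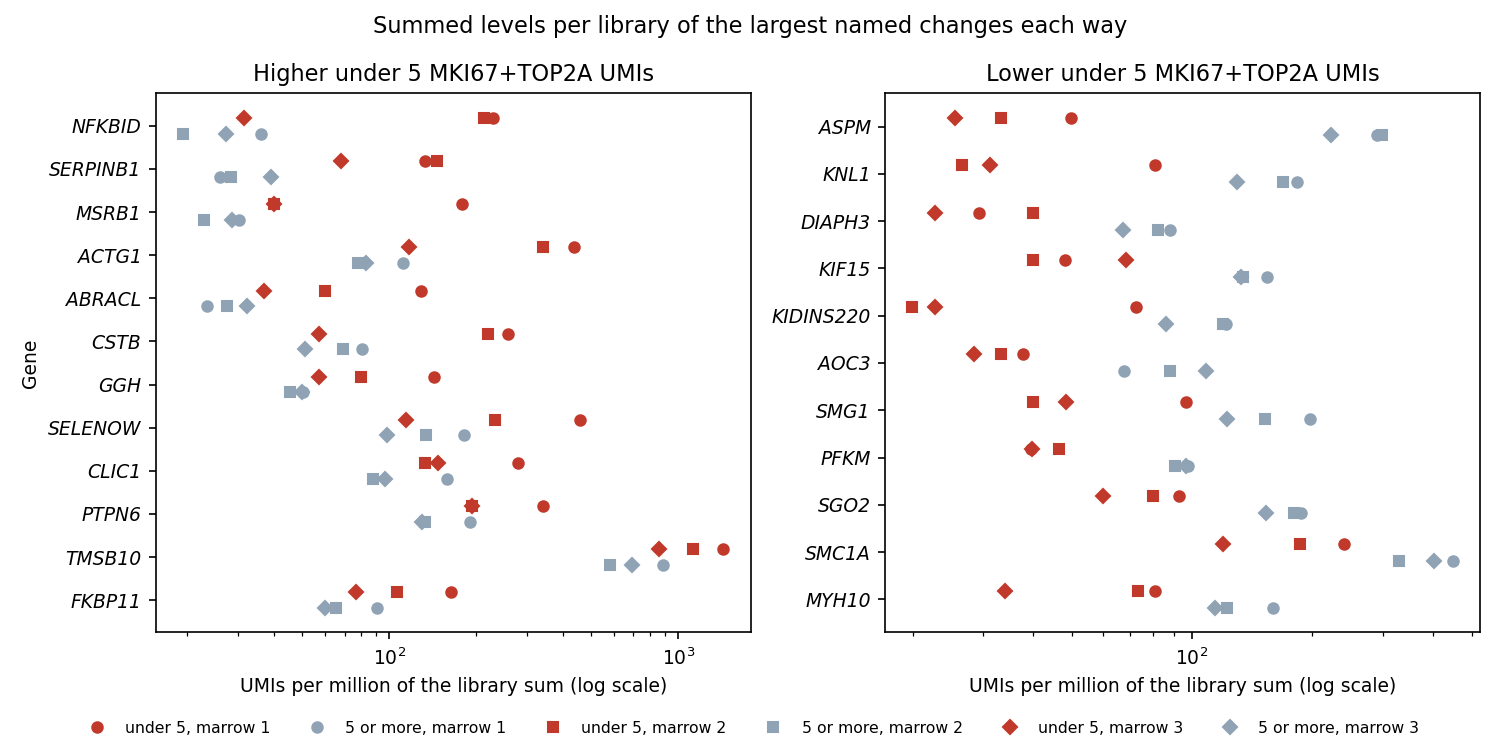
Summed level per marrow (horizontal axis, CPM, logarithmic) of named genes with the largest rise (left) and fall (right) in MKI67/TOP2A-low erythroblasts; red marks are MKI67/TOP2A-low and grey marks MKI67/TOP2A-high erythroblasts, and the marker shape gives the marrow. On the left, marrow 1 (circles) has the highest red mark for every gene but SERPINB1, which is highest in marrow 2. On the right every red mark lies left of the grey mark of its own marrow, which the choice of named genes required.

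These counts moved when the marrow block, 1 marrow or UMIs above 5000 per barcode were left out. Leaving out a marrow or those UMIs also gives less data, and its part in these moves was not tested. With barcodes limited to 5000 UMIs, 71 of the 132 higher and 138 of the 143 lower calls were still tested. Without the block 0 genes were higher and 2 lower, without marrow 1 20 and 33, without marrow 3 146 and 70, and with barcodes limited to 5000 UMIs 34 and 23.

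The second comparison asked how other genes vary among members along the AHSP, HBM and CA1 share that chose them. Within each marrow, members were ranked by their AHSP, HBM and CA1 share, and the 1 in 4 with the highest share (high-share members) were compared with the 1 in 4 with the lowest (low-share members). Most tested heme synthesis genes and several of the red cell membrane were higher in high-share members, and 5 of 12 early erythroid and growth genes were lower. The ranking share also chose the members, so genes that go with it are favoured to rise. The tests describe this ranking and are no support for the identity of the set. Each end held 20, 7 and 7 barcodes in marrows 1 to 3, with 164400.0, 27761 and 55611 UMIs in the high-share and 163683, 48516 and 149515 UMIs in the low-share sums. A single barcode gave up to 50.6% of a sum. The shares that ranked them had medians of 3.12, 3.36 and 3.54% and 0.606, 1.76 and 1.33%. CPM in this comparison leaves AHSP, HBM and CA1 out of the total. Of 1019 genes tested, 53 were higher (5.2%) and 39 lower (3.83%) in edgeR, 92 in all (9.03%), with a median log2 fold change of -0.09 over all genes.

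The largest rise was in the 2 abundant unnamed features. ENSCAFG00000032615 had 76124, 240173 and 183649 CPM against 1674, 34946 and 19738 CPM (log2 4.38 ± 0.45 SE) and ENSCAFG00000030286 a log2 fold change of 4.33 ± 0.45 SE, and the sums of high-share and low-share members did not overlap for either. CPM shares a fixed total, so these features leave less of it to other genes in high-share sums: 50.1% of genes had a lower CPM there in all 3 marrows and 5.79% a higher one, and 30% did not overlap. Fold changes are after TMM scaling, which the CPM values are not. Of 8 tested heme synthesis genes 7 were higher (among them ALAS2, ALAD, UROS, UROD, PPOX and ABCB6), against 5.2% of all genes, with a median of 1.58. ALAS2 had 848, 1417 and 767 CPM against 111, 354 and 474 CPM (log2 2.38 ± 0.34 SE, adjusted p = 3.79e-10, edgeR), and PPOX, which forms protoporphyrin, had 352, 298 and 262 CPM against 80.0, 125 and 135 CPM (log2 2.01 ± 0.47 SE, adjusted p = 0.000667, edgeR). UROD, a middle step of the pathway, rose by 1.45. BLVRB, which acts on the breakdown product of heme, had 1074, 2014 and 2561 CPM against 443, 958 and 1091 CPM. EIF2AK1, the kinase that slows globin synthesis when heme is short, had 107, 261 and 206 CPM against 49.2, 62.5 and 67.7 CPM (log2 2.02 ± 0.59 SE, adjusted p = 0.0108, edgeR).

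Surface and skeleton genes rose in 4 of 7 tested, against 5.2% of all genes. RHCE had 634, 1082 and 393 CPM against 142, 187 and 230.3 CPM (log2 2.31 ± 0.38 SE, adjusted p = 1.78e-07, edgeR), with no overlap between the ends. GYPC, the glycophorin that anchors the skeleton, rose by 1.31. Among 5 tested transcription factors HEMGN alone was higher, against 5.2% of all genes. It had 251, 820.5 and 262 CPM against 49.2, 125 and 210.0 CPM (log2 2.21 ± 0.47 SE, adjusted p = 9.14e-05, edgeR). KLF1 (1.18 ± 0.44 SE, adjusted p = 0.0681) and GATA1 (0.31 ± 0.46 SE, adjusted p = 0.781) did not pass in edgeR.

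Of 8 tested peroxide and oxidant genes 3 were called higher, against 5.2% of all genes, but the list's median was 0.04, and 4 of the 8 had a lower CPM in high-share members of all 3 marrows against 2 with a higher one. PRDX2 had 3284, 4102 and 4337 CPM against 1421, 2874 and 2947 CPM (log2 1.33 ± 0.30 SE, adjusted p = 0.000387, edgeR), GPX1, glutathione peroxidase, had 2832, 3916 and 2374 CPM against 923, 1395 and 1666 CPM (log2 1.76 ± 0.31 SE, adjusted p = 8.03e-07, edgeR), and SOD1, superoxide dismutase, rose by 1.25 but was lower in high-share members of marrow 2. Of genes with other roles, MIOX had 295, 746 and 486 CPM against 6.15, 104 and 61.0 CPM (log2 4.01 ± 0.52 SE, adjusted p = 4.21e-12, edgeR), the largest rise of any gene with a symbol and 50 CPM or more. The mitochondrial phosphatase PTPMT1 and the ciliary transport gene IFT27 rose by 2.41 and 2.27. H1-5, a linker histone made in S phase, had 314, 298 and 299 CPM against 24.6, 146 and 61.0 CPM (log2 2.92 ± 0.51 SE, adjusted p = 6.89e-07, edgeR).

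No replication gene was called lower in high-share members. Of 13 tested 3 were higher, against 5.2% of all genes. DUT, which clears dUTP, had 754, 522 and 991 CPM against 135, 187 and 284 CPM (log2 2.51 ± 0.37 SE, adjusted p = 9.86e-10, edgeR). RRM2 and TK1, which supply deoxynucleotides, rose by 1.69 and 1.33. CCNB2 and UBE2S, which act in mitosis, were also higher, the 2 called of 9, against the same 5.2%. Calls were kept by DUT in 11 of 13 other settings, RRM2 in 3 of 9 and TK1 in 3 of 12. CCNB2 kept its call in 3 of 6 and UBE2S in 9 of 13. TK1 turned to -0.10 with a mitochondrial limit of 5%, and UBE2S to -0.20 with the erythroid limit at 2%. MKI67 and TOP2A, held under 5 UMIs by the choice of members, stood at 1.95, 4.68 and 2.34 UMIs per 10000 in high-share and 0.977, 1.86 and 0.468 in low-share members.

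Of 12 early erythroid and growth genes 5 were lower (NPM1, NCL, NOP58, NME1 and HSPA9) and 0 higher, against 3.83% of all genes, with a median of -1.14. NPM1, the main nucleolar chaperone, had 521, 74.6 and 318 CPM against 3058, 1333 and 1646 CPM (log2 -2.25 ± 0.34 SE, adjusted p = 6.32e-09, edgeR). HSP90AB1, the constitutive cytosolic HSP90, had 1344, 112 and 355 CPM against 7452, 3166 and 3624 CPM (log2 -2.74 ± 0.34 SE, adjusted p = 3.47e-13, edgeR), with every high-share sum below every low-share one. FKBP11, a folding enzyme of the endoplasmic reticulum, gave 1, 0 and 1 UMIs in high-share and 43, 16 and 24 in low-share members. PFDN5, a subunit of a folding complex, and PSMG4, a proteasome assembly factor, fell by 2.32 and 2.43 on the log2 scale. TMSB10 had 553, 112 and 224 CPM against 2332, 2999 and 1578 CPM and ACTG1 126, 37.3 and 37.4 CPM against 855, 999.6 and 251 CPM, so both genes of the actin system that were higher in members than in MKI67/TOP2A-high erythroblasts were lower in the members with most AHSP, HBM and CA1 than in those with least. CD63, DBI, DHX9 and ZC3H13 were the other named falls. GAPDH, the glycolytic enzyme, had 100.5, 37.3 and 112 CPM against 191, 1520.3 and 447 CPM (log2 -1.64 ± 0.47 SE, adjusted p = 0.00816, edgeR), and EIF2S1, the substrate of EIF2AK1, fell by 1.5.

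Neutrophil transcripts moved with the ranking as well. LYZ, lysozyme of neutrophils and macrophages, had 691, 149 and 0 CPM against 2018, 4415 and 94.8 CPM, and neutrophil markers took 1.67, 0.137 and 0.0917% of UMIs in high-share and 1.98, 2.80 and 1.12% in low-share members of marrows 1 to 3. Neutrophil-rich barcodes numbered 4, 0 and 0 among high-share and 10, 1 and 1 among low-share members. Without them, 41 of the 53 higher and 23 of the 39 lower calls were kept. Median depth did not move one way, at 2332.5, 2182 and 4742 UMIs in high-share and 2471, 4724 and 1689 in low-share members. The 10 mitochondrially encoded genes tested had 0 calls and a median of -1.11. Of the remaining lists, BLVRB and HAGH were the 2 called of 8 late erythroid genes, both higher. HMGB2 was the 1 higher of 5 genes of nuclear condensation, and 5.2% of all genes were higher. None of 53 ribosomal protein genes, 38 genes of oxidative phosphorylation, 5 of mitophagy, 3 of ubiquitin, 3 of erythropoietin signalling or 2 of cell cycle exit passed.

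**Figure D4:**
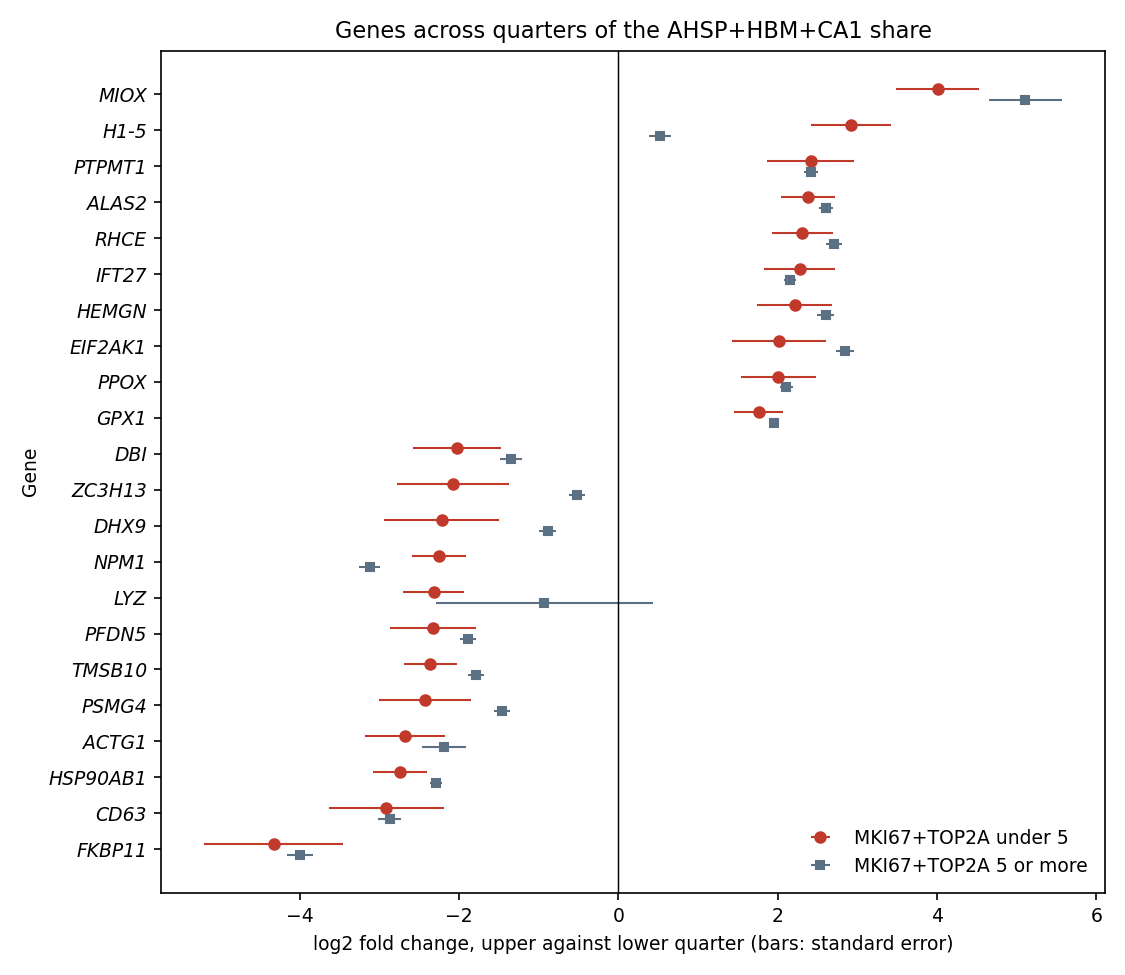
Log2 fold change of high-share against low-share barcodes, ranked by AHSP, HBM and CA1 (horizontal axis, bars are standard errors) for the largest named rises and falls among MKI67/TOP2A-low erythroblasts (red circles), with the same ends of MKI67/TOP2A-high erythroblasts (grey squares). All genes shown point the same way in both sets; H1-5 (2.92 against 0.52) is farthest apart among the rises.

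The same ranking was applied to MKI67/TOP2A-high erythroblasts, an analysis added after seeing the data. There, with far deeper sums, 2028 genes were higher and 1928 lower of 7021 tested. All 53 genes that rose among members also rose and were called, and 33 of the 39 that fell also fell and were called. ALAS2 changed by 2.61 ± 0.09 SE there and NPM1 by -3.12 ± 0.13 SE. A test of the difference between the 2 sets, over 6031 genes, called 9 genes in edgeR (471 at an unadjusted p under 0.05). Of the 92 genes called among members, H1-5 was the 1 that differed, with 0.52 ± 0.13 SE in MKI67/TOP2A-high erythroblasts, a difference of 2.31 ± 0.47 SE and an adjusted p of 0.00205. The rise of H1-5 among members was itself 0.20 at an erythroid limit of 2% and 0.71 at a mitochondrial limit of 5%, and lost its call there and without marrow 1 (2.47), and the difference was not tested under those settings. For the others no difference was detectable at this depth, which does not show that they change alike.

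Few barcodes carried this comparison. Without marrow 1, 21 genes were higher and 9 lower, without marrow 3 25 and 21, without the marrow block 11 and 7, and with barcodes limited to 5000 UMIs 18 and 8.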

How the data were processed

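Per the file headers and labels, 5 libraries (10x 3' chemistry) were deposited by the authors as raw UMI counts of 20257 features per barcode, unnormalized, made with Cell Ranger (7.0.1 in the headers, 7.1.0 in the submitters' processing notes) on CanFam 3.1; no source used here names the annotation, and 4432 features carry no symbol. No genome was used, so no coordinates are given. The members, gene lists and tests were chosen with earlier results of these data known. Members were selected as described above; doublets were scored but kept. UMIs were summed per marrow and set. Sums were tested with edgeR 4.0.16 in R 4.3.3 (quasi-likelihood test, TMM factors, filterByExpr, robust, marrow as a block because both sums come from the same dog, 2 residual degrees of freedom), Benjamini-Hochberg adjusted over all genes tested, with a threshold of 0.05 and DESeq2 1.42.0 as an alternative. MKI67, TOP2A, AHSP, HBM and CA1 were left out of the gene tests. Standard errors are the fold change over the root of the F statistic. CPM is UMIs per 1000000 of a sum. Scripts were tested on simulated data. Named genes are, per comparison, the 12 largest called changes each way with a symbol, the same direction in all 3 marrows and a mean of 50 CPM or more, leaving out ribosomal, mitochondrial, replication and mitosis genes; up to 4 genes of lowest p and 2 of highest level per list (20 lists); markers (10 lists); and the 15 leading genes against other barcodes. XPO7, CDKN1A, MT-ND1 and genes at 0 were named beyond this rule after their values were seen. Levels are compared between sets, not between genes. Some genes that met the rule are not reported here.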

Additional observations from a re-analysis of the deposited data

Results flagged for a closer look

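Barcodes that met the AHSP, HBM and CA1 limit but were left out by the limits on genes and mitochondrial share numbered 24, 19 and 180 in whole marrows 1 to 3, and 0 in each sorted library. They are given here because they hold an erythroid signal outside the data compared above. Those of marrow 3 had a median of 747 UMIs, 150.0 genes and 73.7% mitochondrial UMIs, and 159 of the 180 had fewer than 5 MKI67 and TOP2A UMIs. The medians were 4234.5 UMIs and 25.6% in marrow 1 and 1688 UMIs and 35.3% in marrow 2. In marrow 3 they outnumber the 30 members, so the share of members there and their median mitochondrial share depend on these limits.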

How the results depend on the processing

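Counts of higher and lower genes between MKI67/TOP2A-low and MKI67/TOP2A-high erythroblasts (132 and 143) became 67 and 39 with DESeq2, 16 and 87 with the erythroid limit at 2%, 49 and 29 for members with 0 MKI67 and TOP2A UMIs, 56 and 107 with a mitochondrial limit of 5%, 95 and 76 without doublet calls and 29 and 96 without neutrophil-rich barcodes. Without the replicate block they were 0 and 2 (pairing is by dog). Settings added after seeing the data gave 59 and 145 at 10000 UMIs or more, 37 and 60 from 5000 to 50000 UMIs, 18 and 78 at 5000 UMIs or more without neutrophil-rich barcodes and 34 and 23 with barcodes limited to 5000 UMIs. Leaving out 1 marrow at a time gave 20 to 146 higher and 33 to 147 lower genes, lowest without marrow 1.

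Counts between high-share and low-share members (53 and 39) became 26 and 13 with DESeq2, 11 and 2 at 2%, 9 and 4 at a mitochondrial limit of 5%, 11 and 25 without a low-count filter, 69 and 60 for the top and bottom 1 in 3, 18 and 8 with barcodes limited to 5000 UMIs and 11 and 7 without the replicate block. Leaving out 1 marrow gave 21 to 64 higher and 9 to 46 lower genes. The cause of these moves was not tested, except that stricter limits leave fewer barcodes.

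Over the named genes, 791 values under other settings kept direction and call, 454 kept direction only and 5 turned: ALOX15 to -2.07 at 10000 UMIs or more and -0.075 from 5000 to 50000 UMIs, TMSB10 to -0.20 for members with 0 MKI67 and TOP2A UMIs, and, between high-share and low-share members, UBE2S to -0.20 at 2% and TK1 to -0.10 at a mitochondrial limit of 5%. The member share of kept barcodes was 0.439% in marrow 1 at 2%, and 0.384%, 0.240% and 0.230% in marrows 1 to 3 for 0 MKI67 and TOP2A UMIs. Depth limits both comparisons: 3 marrows with 28 to 81 members each.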

Other observations

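Carbonic anhydrase levels are given by marrow. CA1, one of the genes that chose the set, stood at 3793, 1225 and 3075 CPM in marrows 1 to 3, lowest in marrow 2, as in MKI67/TOP2A-high erythroblasts (4146, 2507 and 3322 CPM), and CA2, which did not enter the choice, at 4815, 3628 and 5343 CPM. HBM stood at 4586, 11643 and 9519 CPM, lowest in marrow 1, while AHSP was level at 9821, 9253 and 9923 CPM. CA4, CA5B, CA8, CA12 and CA14 had 0 UMIs in members, which allows up to 5.16, 20.0 and 8.53 CPM in marrows 1 to 3. No test was made of these differences, since each marrow is 1 dog.

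Among 39 genes that human erythroblasts raise late, FAXDC2, TMCC2, OSBP2, YPEL4 and RAP1GAP had 0 UMIs in the members of all 3 marrows, with the same allowance. SELENBP1, a selenium-binding protein abundant in red cells, stood at 303, 319.5 and 296 CPM in members and UBAC1 at 291, 273 and 279 CPM. VIM, an intermediate filament gene singled out here after its values were seen, had 504, 1198 and 42.7 CPM in members and 90.1, 59.4 and 79.1 CPM in MKI67/TOP2A-high erythroblasts, and did not pass in either comparison (edgeR adjusted p = 0.768 and 0.0657). The neutrophil markers of members were lowest in marrow 3 as well, and their part in these values was not tested.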
